A study of Mus musculus with 7 samples.

Results

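Zfp281 sites that embryonic stem cells and extraembryonic endoderm stem cells have in common, away from Polycomb, were taken from lists of peaks made by chromatin immunoprecipitation and sequencing (ChIP-seq). Members were selected on the peak lists themselves: a Zfp281 peak of the extraembryonic endoderm stem cells (XENs) counted as a shared site when it overlapped a Zfp281 peak of the embryonic stem cells (ESCs) by at least 1 bp and touched no ESC Suz12 peak, on chromosomes 1 to 19 and X. Of the 3449 peaks in the XEN Zfp281 list, 2616 met this rule, or 75.8% (95% Wilson interval 74.4 to 77.2%). The remainder were 656 peaks with neither kind of ESC peak, 171 with both and 6 with an ESC Suz12 peak alone. The shared sites fell in 2510 of the 52296 peaks of the ESC Zfp281 list, and 44 of these ESC peaks met a Suz12 peak elsewhere along their length.

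Zfp281 is a zinc finger transcription factor of the Cys2His2 class that binds G-rich DNA and is known in ESCs as a partner of pluripotency factors and of chromatin-modifying complexes. Suz12 is a core subunit of Polycomb repressive complex 2, which trimethylates histone H3 at lysine 27 and keeps developmental genes silent. ESCs are pluripotent and derive from the inner cell mass. XENs self-renew as the primitive endoderm lineage, whose descendants line the yolk sac, so the pair stand on either side of an early lineage choice.

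The study asked how Zfp281 in ESCs bears on their conversion into XENs. The 3 groups used here are ESC Zfp281, ESC Suz12 and XEN Zfp281, each with 1 library from strain 129S1. The labels name no genetic change, treatment or age for either cell type. ESCs were kept without feeder cells in serum with leukemia inhibitory factor, and XENs without feeders in medium conditioned by embryonic fibroblasts. One Zfp281 antibody served both cell types. The lists hold no expression values, so the labelled cell types could not be set against their marker genes. With 1 library in each group there is no spread between replicates and no test of any difference. All values below describe these libraries, and a difference between cell types cannot be told apart from a difference between immunoprecipitations. Intervals cover counting error only.

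Each deposited peak carries a fold enrichment over the expected level and a p-value from the authors' peak caller, and together they give the whole number of sequenced tags piled up at the summit and the control level behind it. Every one of the 52266 ESC and 3449 XEN Zfp281 peaks on these chromosomes had a whole number of tags that returned its -log10 p-value within 0.002. The genome-wide background came to 3.01 tags in the ESC library and 2.89 in the XEN library, so the background under a summit was similar in both. Read totals are not given in the sources used here. A level below means summit tags, and a control level means the expected level at the peak, each divided by this background. Whether the expected level came from the input libraries that the labels list is not given in the sources used here. Positions are in the build mm9, which the submitters' processing notes name, and count from 1. Neither the genome sequence of that build nor its gene annotation was used here, so the sites are given by position without genes or sequence.

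At most shared sites the XEN and the ESC summit lay within 100 bp of each other. The median distance between the XEN and the ESC summit was 55 bp (quartiles 22 and 118 bp). It was at most 50 bp at 47.3% of the sites and at most 100 bp at 70.7% (68.9 to 72.4%). The rule needs only 1 bp of overlap and does not use the summits. Overlap itself still limits how far apart the summits can lie, and no expected distance was worked out for peaks of these widths. The XEN summit lay inside the ESC peak at 98.7% of the sites, and the whole XEN peak did so at 85.6% (84.2 to 86.8%). XEN peaks were narrower: their median width was 393.5 bp against 1110.5 bp for the ESC peaks at the same sites, and the ESC peak was the wider one at 95.1% of them.

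**Figure D1:**
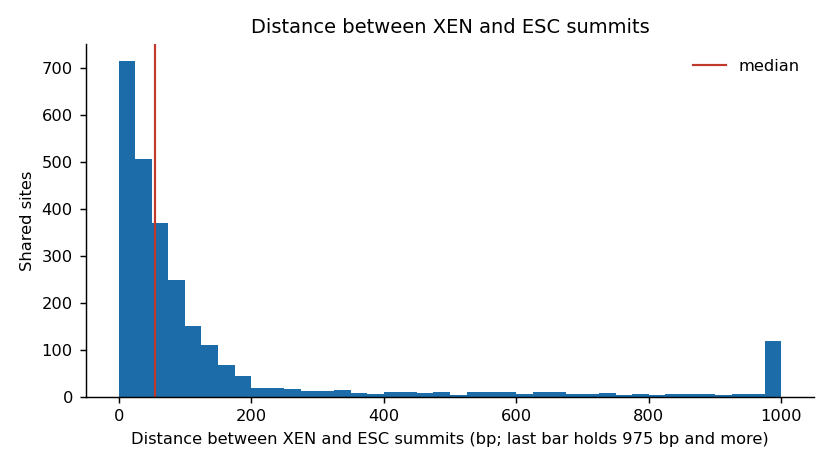
Distance in bp between the XEN and the ESC summit (x axis) against the number of shared sites (y axis), in bars of 25 bp with the last bar open to the right. The bars are highest near 0 and the line marks the median of 55 bp.

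A smaller group of sites lay off the ESC summit. The distance exceeded 500 bp at 249 sites, or 9.52% (8.45 to 10.7%). Summits lay farther apart where the ESC peak was wide. Among the narrowest 25% of ESC peaks (median width 576 bp) 79.2% of the summits were at most 100 bp apart, and among the widest 25% (median width 2248 bp) 53.7% were. Of the 249 distant sites, 120 shared their ESC peak with another XEN peak. In all, 100 ESC peaks held 2 shared sites, 4 held 3 and 2 held 4, so that a single broad ESC peak stood over several separate XEN summits.

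In ESCs the shared sites were strong ones. Their ESC peaks had a median of 69 tags at the summit (quartiles 39 and 113), against 24 tags (quartiles 18 and 36) for the 45737 ESC peaks with neither an XEN Zfp281 nor an ESC Suz12 peak. The 69 tags count an ESC peak once for each of its shared sites. Counted once each, the 2466 ESC peaks at shared sites without Suz12 had a median of 66 tags (quartiles 38 and 110). High ESC tags were not particular to peaks without Suz12. The 200 ESC peaks that overlapped both an XEN Zfp281 and an ESC Suz12 peak had a median of 78 tags (quartiles 47 and 114). These 200 include the 44 that hold a shared site and meet Suz12 elsewhere. Few came from the weak end of the ESC ranking: 299 shared sites, or 11.4%, had an ESC peak in the lower 50% of the ESC list by -log10 q-value, while 50.4% had one in the highest 10%. The median ESC peak at a shared site stood at the 90.2 percentile of the list. Membership requires an ESC peak, so these values describe what the rule picked and support nothing beyond it. In XENs the shared sites differed less from the rest of their own list. Their median was 34 tags (quartiles 26 and 46), against 31 tags (25 and 40) at the 656 XEN peaks with neither ESC peak and 32 tags (26 and 41) at the 171 XEN peaks that had both. These ranges overlap widely.

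The ESC peaks without Suz12, 48203 in number, were divided into 20 equal parts by -log10 q-value. In the first part 35.2% (33.3 to 37.1%) held a shared site, in the second 16.1% (14.7 to 17.7%) and in the third 10.7% (9.57 to 12.0%). The share was 2.07% in the tenth part and 0.705% (0.441 to 1.13%) in the last. Even among the strongest ESC sites the sharing was incomplete, at 60 of the first 100 (50.2 to 69.1%) and 457 of the first 1000 (45.7%). Seen from XENs it was nearly complete at the top: 93 of the 100 strongest XEN peaks without Suz12 were shared sites (86.3 to 96.6%), and 80.0% of all 3272 were. The ESC list held 52296 peaks and the XEN list 3449, and ESC peaks were the wider ones. Shares seen from ESCs and from XENs are therefore not like measures.

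**Figure D2:**
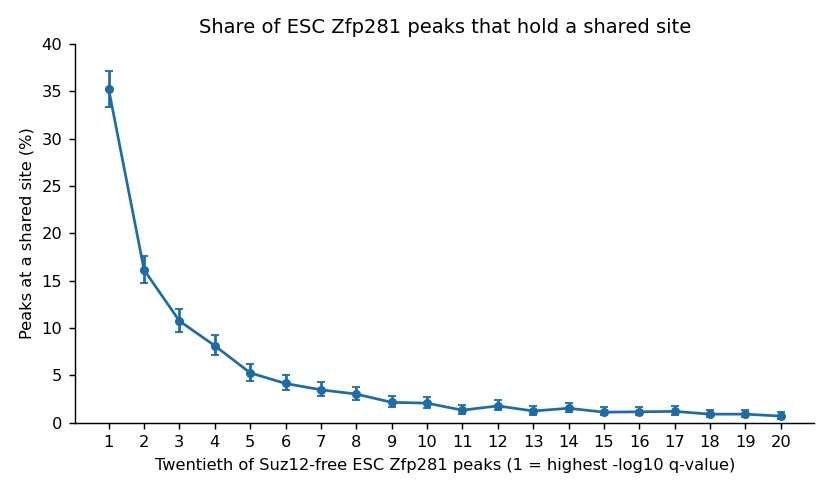
Percent of Suz12-free ESC Zfp281 peaks that hold a shared site (y axis) in 20 equal parts of the ESC ranking (x axis, strongest part at the left), with 95% Wilson intervals as bars. The share falls from 35.2% in the first part to 0.705% in the last.

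The strongest ESC peak without Suz12 was itself not a shared site. It lay on chromosome 11 from 95850633 to 95854060 with 326 tags, and the nearest XEN peak was 6376 bp away. The second ESC peak of the list, on chromosome 15 from 38007249 to 38009133 with 312 tags, had its nearest XEN peak 373364 bp away. On chromosome 8 from 108216241 to 108218786, the ESC peak of rank 4 had 375 tags and its nearest XEN peak 12954 bp away. On chromosome 4 from 150051218 to 150052937, the peak of rank 5 had 309 tags and its nearest XEN peak 69355 bp away.

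ESC peaks of like strength were compared to see what the shared ones have besides it. Within the first of the 20 parts, shared ESC peaks had a median width of 1575 bp and the others 1397 bp, but shared ones also had more tags there, 133 against 115. In the second part, where the tags were 78 and 76, the widths were 1153 and 1166 bp. Another ESC Zfp281 peak lay within 10 kb of 69.2% of the shared and 69.6% of the other peaks of that part. The median gap to an ESC Suz12 peak was 103 kb for shared and 101 kb for other peaks. The fifth part, with 41 and 40 tags, differed more, with widths of 887 and 810 bp. A neighbour was present at 74.8% and 65.2%, and the gaps were 78.9 and 96.8 kb. The parts on either side went the other way in neighbours and gaps. A neighbour was present at 63.3% and 66.3% in the fourth part and at 60% and 63.1% in the sixth. The gaps were 101 and 98.5 kb in the fourth and 124 and 102 kb in the sixth. Over the 20 parts the shared peaks had the larger median width in 15, the larger share with a neighbour in 12 and the smaller median gap to Suz12 in 9. Width is tied to the rule, because a wider ESC peak is more easily overlapped. Such counts weigh all parts alike, although the first held 849 shared peaks and the last 17. A control level above background was seen at 71.7% of the shared and 68.0% of the other peaks in the second part and at 80.6% and 73.2% in the first. It was the more frequent at shared peaks in 14 of the 20 parts.

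Among the shared sites the order of strength in ESCs was only weakly related to the order in XENs. Across the 2616 sites the Spearman correlation between XEN and ESC fold enrichment was 0.21, and between summit tags 0.25. These are descriptions across sites that come from the same libraries. A site had to be a peak in both, which narrows the range of strengths and can lower the correlation. Members in the lowest quartile by XEN -log10 q-value had a median of 54 ESC tags (quartiles 32 and 92), and those in the highest quartile a median of 92 (47 and 147). Of the 293 members in the highest 10% of the XEN list, 67.2% (61.7 to 72.4%) were in the highest 10% of the ESC list, against 34.8% (29.2 to 41.0%) of the 247 members in the lowest 10% of the XEN list.

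The level in XENs was a median of 0.534 times the level at the summit of the overlapping ESC peak, with quartiles of 0.335 and 0.930. At 249 sites these summits lay over 500 bp apart, and an ESC peak with several shared sites entered once for each. Those sites are included in all values of the ratio here. The level was higher in XENs at 579 sites, or 22.1% (20.6 to 23.8%). It was under 0.25 times the ESC level at 336 sites and over 2 times at 137. On the log2 scale the SD of this ratio over sites was 1.07, against 0.32 from the counting error of the tags. The site-to-site differences in the ratio were therefore wider than tag counting gives, although whether a second immunoprecipitation would return them cannot be told from 1 library.

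**Figure D3:**
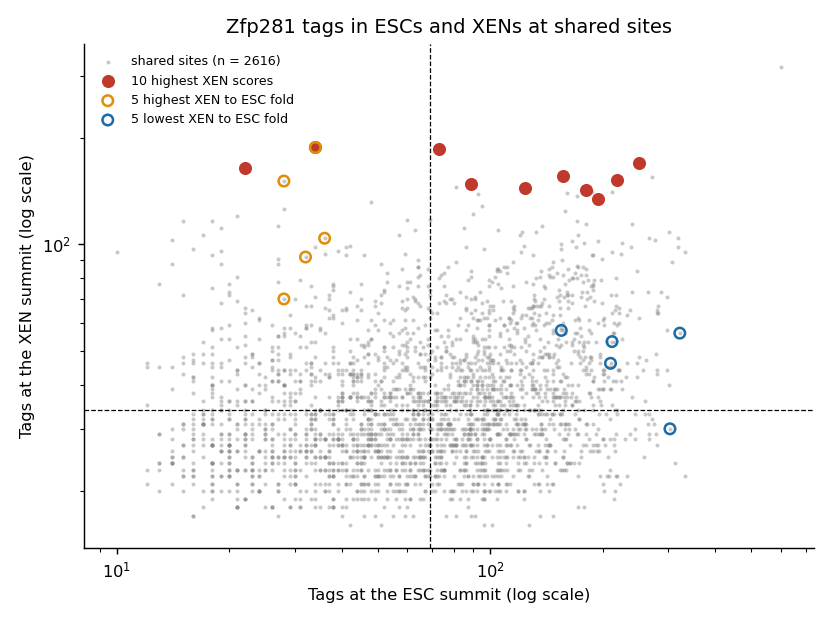
Tags at the ESC summit (x axis) and at the XEN summit (y axis), both on log scales, for each of the 2616 shared sites (grey), with 3 sets of named sites in colour and dashed lines at the medians of 69 and 34 tags. The cloud is broad, and the 10 sites with the highest XEN scores spread from 22 to 251 ESC tags.

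The 10 shared sites with the highest XEN scores show both kinds of behaviour. The first, on chromosome 3 from 95469709 to 95470533, had 186 tags in XENs (exact Poisson 95% interval 160 to 215) and 73 in ESCs (57.2 to 91.8), with summits 11 bp apart. Its ESC peak ranked only 4501 in the ESC list. The next, on chromosome 9 from 59504392 to 59505541, was strong in both, with 170 tags in XENs and 251 in ESCs, where it ranked 57.

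A pair of these leading XEN sites were weak in ESCs. On chromosome 16 from 21396253 to 21396888, XENs had 188 tags (162 to 217) and ESCs 34 (23.5 to 47.5), so that the level relative to background was 64.9 in XENs and 11.3 in ESCs. On chromosome 17 from 27871265 to 27871988, XENs had 164 tags (140 to 191) and ESCs 22 (13.8 to 33.3), and the ESC peak ranked 26908. The XEN and ESC summits were 37 bp apart at the first of these sites and 50 bp at the second. Both were picked for their XEN score, so these values are a description.

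Other leading sites were alike in both libraries. On chromosome 19 from 5806239 to 5807124 the tags were 156 and 157, with levels of 53.9 in XENs and 52.1 in ESCs. On chromosome 7 from 119966701 to 119967629 they were 144 and 124. The remaining leading sites, on chromosomes 5, 6 and 17, had 134 to 152 XEN tags, and their ESC tags ran from 89 to 219. Across the 10 the ESC rank therefore ranged from 57 to 26908.

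Sites with the most uneven enrichment were taken from the 1268 members in the upper 50% of both lists by rank, using the ratio of the XEN to the ESC fold in the authors' lists. The 5 highest ratios were 2.70 to 3.16. They belonged to sites on chromosomes 2, 9, 11, 15 and 16, among them chromosome 9 from 55955216 to 55955908, with 151 tags in XENs and 28 in ESCs. At the other end the ESC fold was 7.79 to 8.79 times the XEN fold. On chromosome 11 from 4998737 to 4999893 the ESC peak ranked 10 with 322 tags (288 to 359), and XENs had 56 (42.3 to 72.7). On chromosome 3 from 21975239 to 21975510 the ESC peak ranked 12 with 303 tags, and XENs had 30 (20.2 to 42.8), with the summits 478 bp apart. Of these 5 low sites, 4 had raised XEN control levels of 2.54 to 3.82, which lower the fold by construction: 3 on chromosome 11 and 1 on chromosome 1. By level, which does not use the local control, XENs stood at 0.181 to 0.383 times ESCs at those 4 sites.

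A single shared site had the most tags among the members in both libraries, 318 in XENs and 602 in ESCs, on chromosome 17 from 39985180 to 39985541. Its control level was 55.1 times the background in XENs and 53.9 times in ESCs, so its enrichment was only 1.99-fold and 3.69-fold. Its ESC peak is one of the 44 that meet a Suz12 peak elsewhere along their length. This site was singled out after its values were seen. Only 2 of the 2616 sites had a control level over 5 in either library, this one included.

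Shared sites were mostly solitary along the chromosomes. The median distance from one to the nearest other shared site was 66591.5 bp, and 22.2% (20.6 to 23.8%) had another within 10 kb. Linking sites with gaps of at most 10 kb gave 2036 sites on their own, 212 pairs, 36 runs of 3 and 10 longer runs, the longest of 8. Another XEN Zfp281 peak of any kind lay within 10 kb of 24.8% (23.2 to 26.5%) of the shared sites. For XEN peaks with neither ESC peak this was 16.6% (14.0 to 19.7%), and for XEN peaks with both it was 31.6% (25.1 to 38.9%). Peaks within 10 kb of each other count each other as neighbours, so they are not independent. These 3 intervals are therefore too narrow to compare the groups by. The rule also bears on these shares. XEN peaks under the same wide ESC peak all have an ESC peak and are neighbours of each other, which raises the share at shared sites.

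The run with the most members held 8 shared sites in 14923 bp on chromosome 11, from 95864903 to 95879825. Its XEN summits had 21 to 56 tags, and none ranked better than 925 in the XEN list. A single ESC peak of 5270 bp with 200 tags covered several of them, and 3 further ESC peaks with 43 to 54 tags covered the others. The strongest ESC peak of the whole list, named above as not shared, lies just before this run on the same chromosome. On chromosome 17 from 29574476 to 29601747, 6 shared sites with 22 to 76 XEN tags lay among 10 ESC peaks, 5 of which held them.

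On chromosome 4 from 133567469 to 133576309, 5 shared sites with 31 to 124 XEN tags lay in 8841 bp under 3 ESC peaks, the highest with 217 tags. Run 4, on chromosome 6 from 82710709 to 82723000, was the exception in its balance. Its 5 XEN summits had 33 to 132 tags and its 5 ESC peaks 30 to 70, and the median level ratio was 1.14, against 0.323, 0.447, 0.384 and 0.356 in the other 4 runs. The ratio sets each XEN summit against the summit of its ESC peak, so sites under 1 ESC peak share that summit. In run 4 each site had its own ESC peak, while in the other 4 runs some sites shared one, so the ratios are not strictly alike. Run 5, on chromosome 10 from 17441260 to 17445460, had 4 XEN summits of 23 to 44 tags under 1 ESC peak of 4857 bp with 92 tags.

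**Figure D4:**
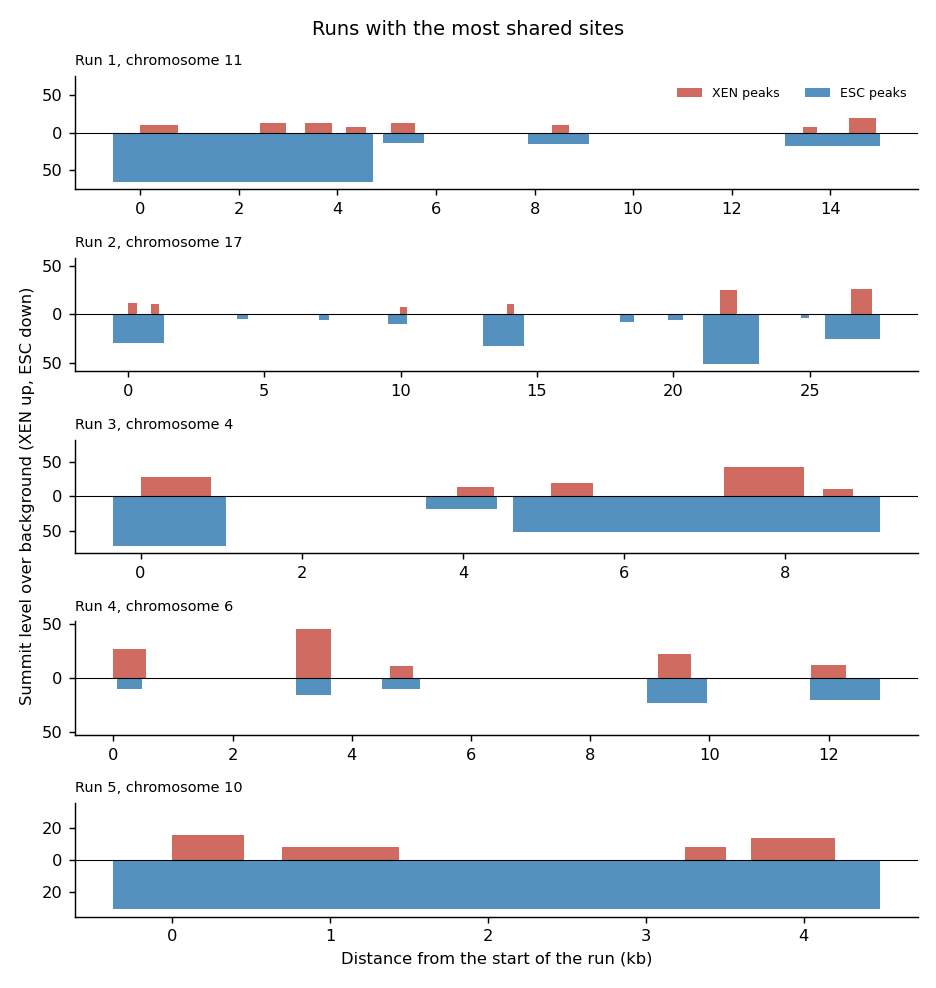
The 5 runs with the most shared sites, with distance from the start of the run in kb (x axis) and the summit level over background (y axis), XEN peaks drawn upward in red and ESC peaks downward in blue, each as wide as its peak. In runs 1, 3 and 5 single wide ESC peaks stand opposite several narrow XEN peaks.

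Chromosomes differed in how many of their ESC sites were shared. On chromosome X, 77 of 645 Suz12-free ESC peaks held a shared site, or 11.9% (9.66 to 14.7%), and on chromosome 4, 93 of 3539 did, or 2.63% (2.15 to 3.21%). The other chromosomes ran from 3.36% on chromosome 5 to 6.98% on chromosome 6. Chromosomes X and 4 were again the extremes among the highest-scoring 10% of these ESC peaks, with 44.9% (31.9 to 58.7%) on chromosome X and 15.6% (12.3 to 19.6%) on chromosome 4. Seen from XENs the chromosomes were closer, with 67.5% of XEN peaks being shared sites on chromosome 3 and 82.2% on chromosome 7.

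The control level moved with this pattern. Each shared site has a control level in both libraries. The ratio sets the control at the XEN peak over that at its ESC peak, and their summits can lie apart. The median ratio was 1.08 over all sites. By chromosome it ran from 0.894 on chromosome 8 and 0.910 on chromosome 4 to 1.31 on chromosome 6 and 1.33 on chromosome 19. A control level cannot fall below 1, because the background is the lowest expected level. A chromosome with less control than that would not show it in these ratios. On chromosome X the ESC control was above background at 12.5% of the shared sites, with a median of 1, and the XEN control at 73.8%. On chromosome 4 the ESC control was raised at 78.8% and the XEN control at 41.4%, and on chromosome 8 the ESC control was raised at 100% of 149 sites.

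Tags at the summits went the same way. On chromosome 4 the median was 28 tags in XENs and 80 in ESCs, a level ratio of 0.379. On chromosome 6 it was 36.5 and 57.5 tags (ratio 0.771), and on chromosome X it was 32 and 46.5 (0.715). Across the 20 chromosomes the level ratio and the control ratio had a Pearson correlation of 0.85 and a Spearman correlation of 0.90. Without chromosomes 19 and 6, the farthest from the median, Pearson's r was 0.80. The control ratio and the percent of ESC peaks shared had a Pearson correlation of 0.69 (0.78 without chromosome X) and a Spearman correlation of 0.76. With the enrichment over the local control in place of the level, Pearson's r was 0.51, and 0.39 without chromosomes 19 and 6. The enrichment is divided by the control, which pulls this r down by construction. It does not show what is left once the control is allowed for. Chromosomes share both libraries and are not replicates, so no p-value is given, and the part of the control level in the sharing was not tested.

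**Figure D5:**
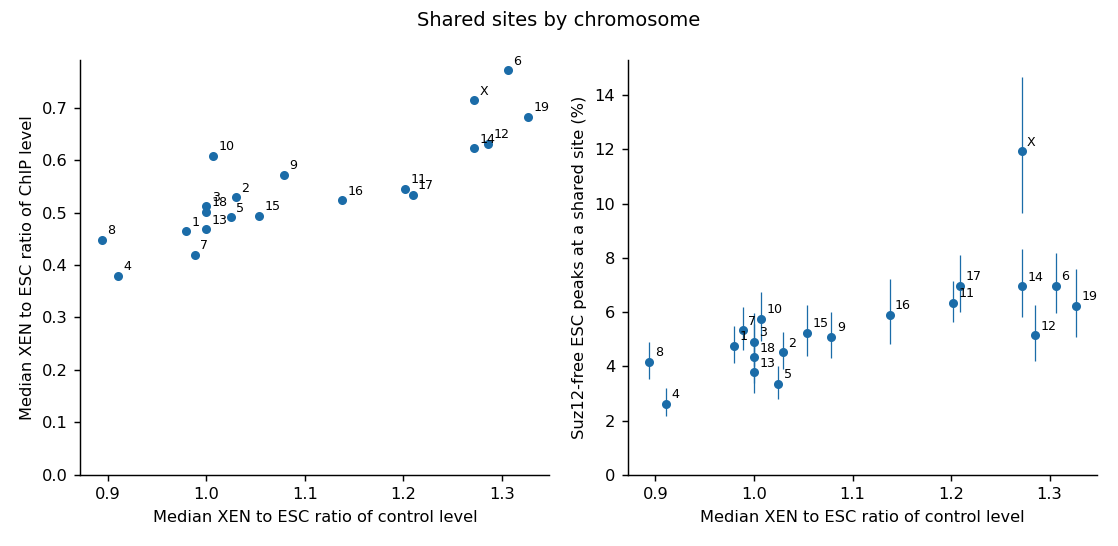
Median XEN to ESC ratio of the control level at shared sites (x axis) against the median ratio of the ChIP level (left) and the percent of Suz12-free ESC peaks that hold a shared site with 95% Wilson intervals (right), 1 point for each of 20 chromosomes. Chromosomes 4 and 8 are at the left with low values, and chromosome X has the highest percent, 11.9%.

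By the rule no shared site touched a Suz12 peak, and their gaps to one were near those of other Suz12-free Zfp281 peaks. The median gap was 96584.5 bp (quartiles 34131 and 212186 bp). For XEN peaks with neither ESC peak it was 105094 bp and for ESC peaks with neither partner 99863 bp. Of the shared sites, 66, or 2.52% (1.99 to 3.20%), were within 1 kb of a Suz12 peak and 9.94% were within 10 kb. The nearest 10% lay within 10171.5 bp. This limit was 11737 bp for XEN peaks with neither ESC peak and 9679.6 bp for ESC peaks with neither partner. The 5 nearest sites stood 3 to 49 bp from one, with 19 to 48 XEN tags, while the 5 closest sites outside the rule shared 10 to 22 bp with a Suz12 peak and had 21 to 90 XEN tags. At the other edge the 5 members with the least overlap shared 2 to 15 bp with an ESC Zfp281 peak and had 19 to 34 XEN tags. The nearest XEN peaks without such an overlap were 3 to 50 bp away, with 21 to 48 tags. Tags overlapped between both sides of each edge.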

How the data were processed

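Per the submitters' processing notes, FastQC 0.10.1, Bowtie2 2.3.4 and SAMtools 0.1.19 were used with the build mm9. The peak caller, its control, threshold and handling of duplicate reads are not given in the sources used here. Each of the 5 deposited lists comes from 1 library and has 10 columns in the narrowPeak layout. The authors deposited for every peak a position, a score, a fold enrichment over the expected level (a ratio), and p- and q-values as -log10. The deposited score is the integer part of 10 times -log10 q. These values rank or describe peaks within a list.

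Lists were intersected with an overlap of at least 1 bp, and each site took the overlapping ESC peak with the highest -log10 q-value. Leaving out other chromosomes removed 30 ESC Zfp281 peaks. Tags were recovered by taking the fold as (scaled tags + 1)/(expected level + 1) and reading each p-value as a Poisson probability of more tags than observed. The scale factor was 1 for ESCs and 0.815 for XENs. This reading is a reconstruction. The lowest expected level, shared by 43.3% of ESC and 17.5% of XEN peaks, was taken as the background.

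Named sites are the 10 highest XEN scores, the 5 extremes of the XEN to ESC fold ratio in the upper 50% of both lists, the 5 runs with the most members (ties by the shorter span) and 5 sites at each edge. Members and rules were chosen with earlier results of these data known. Computation used Python 3.11.15, numpy 2.4.6, scipy 1.17.1, pandas 2.3.3 and matplotlib 3.10.9. Results needing the mm9 sequence or annotation were not run.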

Additional observations from a re-analysis of the deposited data

How the results depend on the processing

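No paired analysis was possible because the lists come from single libraries. The planned shares near start sites, with a G-rich element and the GC percent, with their alternatives, were not run. Of 33 alternatives for the 6 remaining results, 18 stayed within the interval of the reported value or within 1.5 times the count, and 15 moved outside. The correlation is the only result that can be negative, and it stayed positive in each of its alternatives. Chromosomes with a median control ratio of 0.95 to 1.1 and summit tags were chosen as alternatives after seeing the data.

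With the higher-scoring 50% of both Zfp281 lists, which keeps fewer peaks by construction and also keeps those tied with the median, there were 1305 shared sites, or 73.0% of XEN peaks, with a median summit distance of 47 bp, a Spearman correlation of 0.13, a median ESC percentile of 88.2 within the kept list and 14.1% of sites within 10 kb of another. The percent of XEN peaks was 73.9% with no Suz12 peak within 1 kb and 77.4% with the higher-scoring 50% of Suz12 peaks. Peak midpoints were 114.5 bp apart. The correlation of summit tags was 0.25. The median ESC percentile was 89.5 when fold ranked the peaks and 91.1 on the 10 chromosomes with similar control. Other shared sites were found within 5 kb of 16.2% and within 20 kb of 30.3%, and within 10 kb of 18.9% after merging XEN peaks closer than 500 bp. Depth limits single sites: 16 tags was the lowest XEN summit among shared sites.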

Other observations

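The other XEN lists were set beside the shared sites as values. None of the 4 XEN Suz12 peaks overlapped a shared site, and the nearest stood 15058 bp from one. The single XEN peak for trimethylated lysine 27 of histone H3 was 697120 bp from the nearest shared site. Lists this short allow no statement about Polycomb at the shared sites in XENs.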
